A study of Mus musculus with 6 samples.

Results

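Annexins and S100 proteins form partner families of calcium-dependent proteins, and the transcripts of 10 of them were followed in the liver of mouse pups carrying a Notch ligand mutation. The genes are Anxa1, Anxa2, Anxa3, Anxa5, Anxa6, Anxa7, S100a4, S100a6, S100a10 and S100a11. They were taken by symbol as 10 of the 24489 gene entries of the deposited read table, each symbol matched 1 entry, and all 10 passed the filter on low counts that left 13819 genes to test. Livers of 2 genotypes were compared at postnatal day 10. There were 3 libraries of Jag1Ndr/Ndr, homozygous for the Nodder (Ndr) allele of the Notch ligand Jag1, and 3 of Jag1+/+, both on a C3H/C57bl6J background and untreated. The Nodder allele is a missense mutation, and homozygotes serve to model Alagille syndrome, a human disease of scarce bile ducts and cholestasis. The allele is not restricted to a cell type, and RNA came from a single lobe of whole liver, so that fewer cells of a type and less RNA per cell cannot be told apart.

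Annexins bind acidic phospholipids at the inner face of membranes when calcium rises, and take part in membrane repair, vesicle traffic and the handling of dying cells. S100 proteins are small EF-hand calcium sensors that work as dimers, several of them by docking to the tail of an annexin. In healthy liver many of them are more abundant in bile duct epithelium, mesenchyme, endothelium and leukocytes than in hepatocytes, and they are known to rise in injured and regenerating liver.

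The libraries held between 12992592 and 59653111 reads over gene entries in Jag1Ndr/Ndr and between 17548954 and 40499166 in Jag1+/+. A count of 0 allows up to 0.266 CPM (counts scaled to the TMM-adjusted library size) in the shallowest library and 0.0421 CPM in the deepest (3 reads, counting error only). Albumin, the defining hepatocyte transcript, took 10.3% to 13.03% of the reads in Jag1Ndr/Ndr and 16.9% to 17.32% in Jag1+/+ libraries. Jag1 itself averaged 4.84 ± 1.59 CPM in Jag1Ndr/Ndr and 5.96 ± 0.806 CPM in Jag1+/+ livers (SD, n = 3 each), and a missense allele need not change this. The Jag1Ndr/Ndr libraries lay further apart from each other than the Jag1+/+ libraries did, at 46.7, -43.6 and -19.9 on the second principal component, against 7.4, 2.1 and 7.4. Both sexes occurred in both genotypes, unevenly: replicates 2 and 3 of Jag1Ndr/Ndr and replicate 1 of Jag1+/+ had 7252 to 32884 reads of Xist, and the other libraries 8 to 29. The labels do not say that each library is a separate animal, so the p-values measure the spread between these libraries, which may be partly technical.

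Of the 10 genes, 6 rose in Jag1Ndr/Ndr livers and none fell: S100a4, S100a6, S100a11, Anxa2, Anxa5 and Anxa7. A call here is an adjusted p under 0.05 in edgeR's quasi-likelihood test, with the Benjamini-Hochberg method applied over all 13819 genes. By that rule 7.63% of all genes tested changed, 4.73% rising and 2.9% falling. The 4 others, Anxa1, Anxa3, Anxa6 and S100a10, did not pass but had fitted log2 fold changes above 0, as did 50.5% of the genes tested. In the direction of a fall edgeR gave 0 of 10, also 0 by DESeq2, and the 8 genes with an unadjusted p under 0.05 all had fitted values above 0 (13% of all genes tested had such a p and a value above 0, and 22.5% such a p in either direction). The 3 libraries of each genotype lay apart, with Jag1Ndr/Ndr higher, for 8 of the 10 genes, which held for 14.8% of the genes tested, and 29% were apart in either direction. The median log2 fold change (Jag1Ndr/Ndr over Jag1+/+) was 1.00 over the 10 genes, 2.12 over the 4 S100 genes and 0.77 over the 6 annexins, beside 0.00 over all genes tested. Without any single Jag1+/+ library, replicate 1, 2 or 3, the number that rose was 2, S100a6 and S100a11. Rises over all genes also became fewer in these settings, 208, 155 and 181 against 653 with all libraries.

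**Figure D1:**
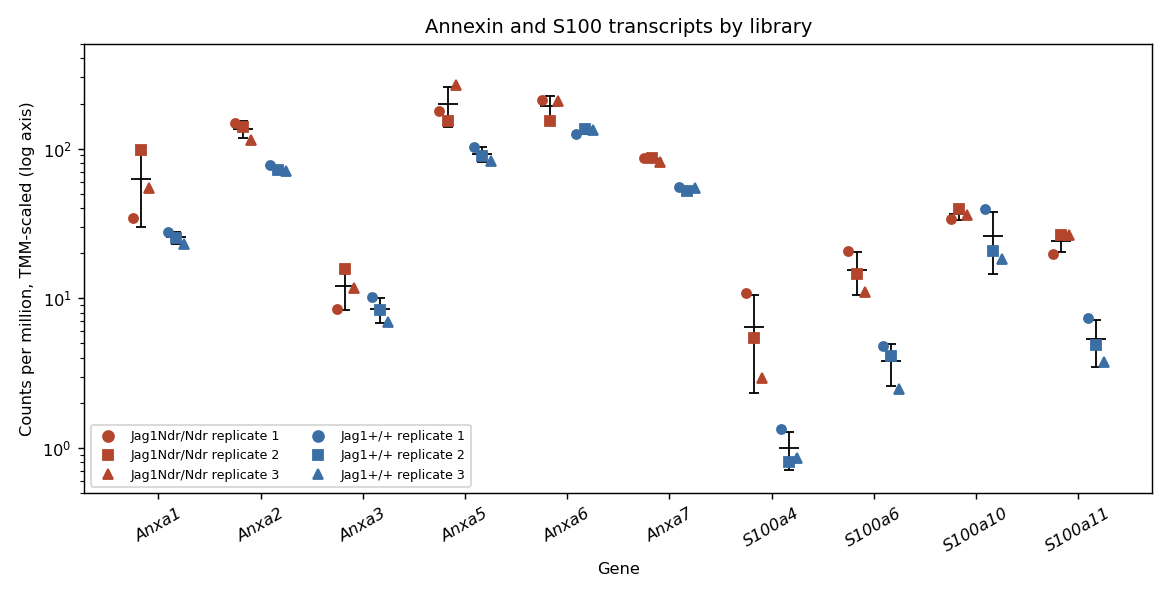
TMM-scaled CPM of the 10 genes in each library on a log axis; points are libraries, and the black marks give the mean and SD of 3 libraries per genotype. S100a4, S100a6 and S100a11 have the widest gap between genotypes, and for Anxa3 and S100a10 the genotypes overlap.

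Among the S100 genes, S100a11 rose 4.63-fold. S100a11, also called calgizzarin, is the S100 partner of annexin A1. It lies on chromosome 3 at positions 93520496 to 93526288 (GRCm38). Its levels were 19.7, 26.7 and 26.6 CPM in Jag1Ndr/Ndr replicates 1, 2 and 3, against 7.35, 4.90 and 3.74 CPM in Jag1+/+ replicates 1, 2 and 3. The genotypes did not overlap, and the lowest Jag1Ndr/Ndr library stood 2.68-fold above the highest Jag1+/+ library. Its log2 fold change was 2.21 with a standard error (SE) of 0.27 (edgeR adjusted p = 0.00415). It lay between 1.99 and 2.49 over 16 alternative settings and passed in all 16. A processed copy, S100a11-ps, lies on chromosome 12, and whether the counts include reads from it was not tested.

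S100a6, or calcyclin, is a growth-associated calcium sensor of fibroblasts and epithelia, and it rose 4.10-fold. It lies on chromosome 3 at positions 90612894 to 90614414. The levels were 20.8, 14.5 and 11.1 CPM in Jag1Ndr/Ndr replicates 1, 2 and 3, against 4.80, 4.09 and 2.48 CPM in Jag1+/+ replicates 1, 2 and 3. Every Jag1Ndr/Ndr library exceeded every Jag1+/+ library, the closest pair by 2.31-fold. Its log2 fold change was 2.04 ± 0.32 (SE, edgeR adjusted p = 0.0101), and it passed in all 16 alternative settings, with adjusted p up to 0.0485.

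S100a4 binds nonmuscle myosin and is typical of motile fibroblasts and monocytes. It had the largest fitted rise of the 10, 6.46-fold, from the fewest reads. Reads numbered 123, 387 and 55 in Jag1Ndr/Ndr replicates 1, 2 and 3, against 23, 25 and 33 in Jag1+/+ replicates 1, 2 and 3. In CPM these were 10.9, 5.43 and 2.93 in Jag1Ndr/Ndr, against 1.33, 0.811 and 0.852 in Jag1+/+. The genotypes were apart, but the Jag1Ndr/Ndr libraries themselves spread 3.72-fold, the widest within that genotype among the 10 genes. The log2 fold change was 2.69 ± 0.49 (SE, edgeR adjusted p = 0.0167). Without Jag1+/+ replicates 1, 2 and 3 the adjusted p was 0.0562, 0.0821 and 0.0782, with log2 fold changes of 2.92, 2.56 and 2.59. Without Jag1Ndr/Ndr replicate 1, the highest library, the log2 fold change was 2.11 and still passed.

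The windows around the starts of the S100a11 and S100a6 genes are shown because these genes kept their calls under every setting. They run 5′ to 3′ on the gene's strand, from 250 bases before to 50 after the RefSeq start (GRCm38.p6), chr3:93520246-93520545 and chr3:90612644-90612943, both on the plus strand. Capitals mark matches to TGANTCA, the core sequence of AP-1 (Fos and Jun) sites.
S100a11: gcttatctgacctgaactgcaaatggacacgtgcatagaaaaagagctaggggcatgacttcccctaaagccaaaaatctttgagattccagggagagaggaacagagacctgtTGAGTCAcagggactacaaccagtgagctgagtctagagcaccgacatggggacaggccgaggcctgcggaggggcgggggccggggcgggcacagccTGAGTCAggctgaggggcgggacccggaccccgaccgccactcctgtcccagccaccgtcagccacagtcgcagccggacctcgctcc
S100a6: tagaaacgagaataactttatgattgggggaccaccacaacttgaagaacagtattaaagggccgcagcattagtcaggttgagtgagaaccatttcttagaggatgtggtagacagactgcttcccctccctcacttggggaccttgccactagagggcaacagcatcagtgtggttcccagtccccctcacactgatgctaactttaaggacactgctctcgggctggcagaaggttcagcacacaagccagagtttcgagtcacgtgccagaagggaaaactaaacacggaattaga
The S100a11 window holds TGAGTCA at 136 and at 38 bases before the start, and the S100a6 window holds no match. Windows were at hand for 7 of the 10 genes, and 2 of the 7, S100a11 and Anxa2, matched TGANTCA, which occurs on either strand in 7.81% of 32851 mouse windows of that length. The STAT letters TTCNNNGAA matched in 0 of 7 (8.3% of all windows) and the TEAD letters CATTCC in 1 of 7, Anxa1 (14.7%). Such matches describe the letters of the windows and no binding.

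Anxa2 and S100a10 encode the subunits of one complex, in which an S100a10 dimer links a pair of annexin A2 molecules, tethers membrane to the actin cortex and takes up plasminogen at the cell surface. Anxa2 (chromosome 9, positions 69453683 to 69491792) rose 1.84-fold. It measured 148, 140.0 and 115 CPM in Jag1Ndr/Ndr replicates 1, 2 and 3, against 77.6, 71.5 and 70.4 CPM in Jag1+/+ replicates 1, 2 and 3. The genotypes lay apart, with the Jag1+/+ libraries close together. The log2 fold change was 0.88 ± 0.16 (SE, edgeR adjusted p = 0.0150). Anxa2 lost this call without Jag1+/+ replicates 1, 2 and 3, at adjusted p = 0.0656, 0.0985 and 0.0948, with log2 fold changes between 0.85 and 0.92.
Anxa2: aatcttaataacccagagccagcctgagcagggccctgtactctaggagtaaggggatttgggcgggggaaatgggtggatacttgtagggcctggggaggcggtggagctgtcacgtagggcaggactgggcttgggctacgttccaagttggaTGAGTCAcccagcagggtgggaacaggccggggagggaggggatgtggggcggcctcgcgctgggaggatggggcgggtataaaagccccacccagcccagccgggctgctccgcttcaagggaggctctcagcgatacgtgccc
This window (GRCm38.p6, chr9:69453433-69453732, plus strand) is shown for its TGAGTCA, in capitals, 95 bases before the start.

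S100a10, or p11, is an S100 protein that has lost calcium binding and holds its partner constantly. Its levels were 33.8, 39.5 and 35.9 CPM in Jag1Ndr/Ndr replicates 1, 2 and 3, against 39.7, 20.8 and 18.3 CPM in Jag1+/+ replicates 1, 2 and 3. Here the genotypes overlapped, since Jag1+/+ replicate 1 was higher than all 3 Jag1Ndr/Ndr libraries. It had a log2 fold change of 0.48 ± 0.28 (SE, edgeR adjusted p = 0.363), and without Jag1+/+ replicates 1, 2 and 3 it was 0.90, 0.33 and 0.27, at adjusted p values of 0.0557, 0.704 and 0.770. Per length, Anxa2 stood at 2.07, 1.68 and 1.51 times S100a10 in Jag1Ndr/Ndr replicates 1, 2 and 3, against 0.926, 1.63 and 1.82 times in Jag1+/+ replicates 1, 2 and 3. These ratios overlapped between the genotypes, and Jag1+/+ replicate 1 was the sole library below 1. The same Jag1+/+ library was the highest of its genotype for 9 of the 10 genes. It also had the highest sum among Jag1+/+ libraries for 6 of the 10 marker lists, those of neutrophils, macrophages and monocytes, mesenchyme, mesothelium, erythroid cells and platelets. The widest ratio was that of the mesothelial sums, 31.0, 14.3 and 6.64 CPM in Jag1+/+ replicates 1, 2 and 3. Replicate 1 was also the sole Jag1+/+ library with Xist reads at the female level (9679). Once sex was a covariate, the S100a10 log2 fold change was 0.36 (edgeR adjusted p = 0.403). The part of any of these in the S100a10 values was not tested.

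Anxa1, which dampens inflammation through formyl peptide receptors on leukocytes, differed most within Jag1Ndr/Ndr among the 6 annexins followed here. It measured 34.6, 97.8 and 54.6 CPM in Jag1Ndr/Ndr replicates 1, 2 and 3, against 27.9, 25.4 and 23.1 CPM in Jag1+/+ replicates 1, 2 and 3. All Jag1Ndr/Ndr libraries lay above all Jag1+/+ libraries, replicate 1 narrowly and replicate 2 far above. The log2 fold change of 1.30 ± 0.33 (SE) did not pass (edgeR adjusted p = 0.0525). It passed in 4 of 16 alternative settings, among them DESeq2 (0.00214), no filter (0.0300), and leaving out Jag1Ndr/Ndr replicate 1 (1.58, 0.0148). Without Jag1Ndr/Ndr replicate 2, the highest library, the log2 fold change was 0.81 (0.0596), and once sex was a covariate it was 0.98 (0.141). Of the 10 marker lists, the neutrophil and endothelial lists ordered the Jag1Ndr/Ndr libraries as Anxa1 did. An order of 3 libraries can be shared by chance. The neutrophil sums were 499, 1376 and 888 CPM and the endothelial sums 487, 517 and 510.0 CPM in replicates 1, 2 and 3, and replicate 1 was also the one without Xist reads at the female level. The part of these in the Anxa1 values was not tested.

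Anxa5, which coats phosphatidylserine on damaged or dying cells, had the highest mean per length of the 10 in Jag1Ndr/Ndr livers and rose 2.17-fold. It lies on chromosome 3 at positions 36448923 to 36475887. Its levels were 179, 153 and 267 CPM in Jag1Ndr/Ndr replicates 1, 2 and 3, against 103, 89.3 and 82.7 CPM in Jag1+/+ replicates 1, 2 and 3. Replicate 3 was the highest Jag1Ndr/Ndr library, and the genotypes did not overlap. The log2 fold change was 1.12 ± 0.23 (SE, edgeR adjusted p = 0.0251). This call was lost without Jag1+/+ replicates 1, 2 and 3 (adjusted p = 0.0780, 0.113 and 0.121). It was also lost once sex was a covariate (log2 fold change 1.04, adjusted p = 0.0642) or the header factor dividing (0.0542).

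Anxa7, or synexin, takes part in the fusion of secretory vesicles and had the most even levels of the 10 within Jag1Ndr/Ndr livers. Its 87.1, 86.4 and 81.5 CPM in Jag1Ndr/Ndr replicates 1, 2 and 3 compared with 55.3, 52.1 and 54.2 CPM in Jag1+/+ replicates 1, 2 and 3. The genotypes were clearly apart, with a highest-to-lowest ratio of 1.07 within Jag1Ndr/Ndr and 1.06 within Jag1+/+. It rose 1.58-fold (log2 fold change 0.66 ± 0.13 SE, edgeR adjusted p = 0.0220; chromosome 14, positions 20455261 to 20480133). Leaving out Jag1+/+ replicates 1, 2 and 3 gave log2 fold changes of 0.67, 0.63 and 0.66 at adjusted p values of 0.0907, 0.135 and 0.123, and once sex was a covariate 0.66 at 0.0575. The deposited RPKM, in which the header factor multiplies, gave no call either (0.87 and 0.90 with pseudocounts of 1 and 0.1, adjusted p = 0.167 each). In them the log2 fold changes over all genes shifted by a median of 0.21 and 0.22. With the header factor dividing, Anxa7 had no call (0.62 at 0.0516).

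Anxa6 and Anxa3 did not pass. Anxa6, the largest annexin and a regulator of endosomes and cholesterol traffic, measured 212, 154 and 209 CPM in Jag1Ndr/Ndr replicates 1, 2 and 3, against 125, 136 and 132 CPM in Jag1+/+ replicates 1, 2 and 3. The genotypes did not overlap, with a log2 fold change of 0.54 ± 0.18 (SE, edgeR adjusted p = 0.106). It passed without Jag1Ndr/Ndr replicate 2, the lowest of its genotype (0.69, adjusted p = 0.0363), and by DESeq2 (0.0476). The noncoding gene Gm19911 overlaps the span of Anxa6, and the libraries do not mark strand. Whether the Anxa6 counts include reads from it was not tested. Anxa3, which is abundant in neutrophils, measured 8.51, 15.7 and 11.8 CPM in Jag1Ndr/Ndr replicates 1, 2 and 3, against 10.1, 8.31 and 6.95 CPM in Jag1+/+ replicates 1, 2 and 3. Here the genotypes overlapped (log2 fold change 0.53 ± 0.26 SE, edgeR adjusted p = 0.280), and no alternative setting gave a call. Without Jag1Ndr/Ndr replicate 2, its highest library, the Anxa3 value was 0.28.

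Per transcript length, levels of the 10 genes are given as TMM-scaled CPM per kilobase (RPKM). By mean, the order in Jag1Ndr/Ndr livers ran from Anxa5 through Anxa2, Anxa6, S100a10, S100a11, Anxa1, Anxa7, S100a6 and S100a4 to Anxa3. Anxa5 averaged 119 ± 35.5 and Anxa2 100.4 ± 13 RPKM in Jag1Ndr/Ndr, against 54.7 ± 6.23 and 54.7 ± 2.90 RPKM in Jag1+/+ livers (SD, n = 3 each). Among Jag1Ndr/Ndr libraries Anxa5 exceeded Anxa2 in replicate 3 alone (158.9 beside 85.8 RPKM), and Anxa2 was the higher in replicates 1 and 2. In Jag1Ndr/Ndr livers the ranges of each pair of neighbours in this order overlapped, except between Anxa2 (85.8 to 111 RPKM) and Anxa6 (59.6 to 82.3 RPKM). S100a11 averaged 49.5 ± 8.19 RPKM in Jag1Ndr/Ndr and 10.9 ± 3.75 RPKM in Jag1+/+ livers, and so stood at rank 5 and rank 7. In Jag1+/+ livers the 4 most abundant genes were Anxa2, Anxa5, Anxa6 and S100a10, each overlapping the next in range, and S100a4 was lowest at 1.67 to 2.74 RPKM, apart from the next, S100a6, at 3.54 to 6.86 RPKM. Ranges also parted S100a10 from Anxa7, Anxa1 from S100a11, and S100a11 from Anxa3 in Jag1+/+ livers.

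**Figure D2:**
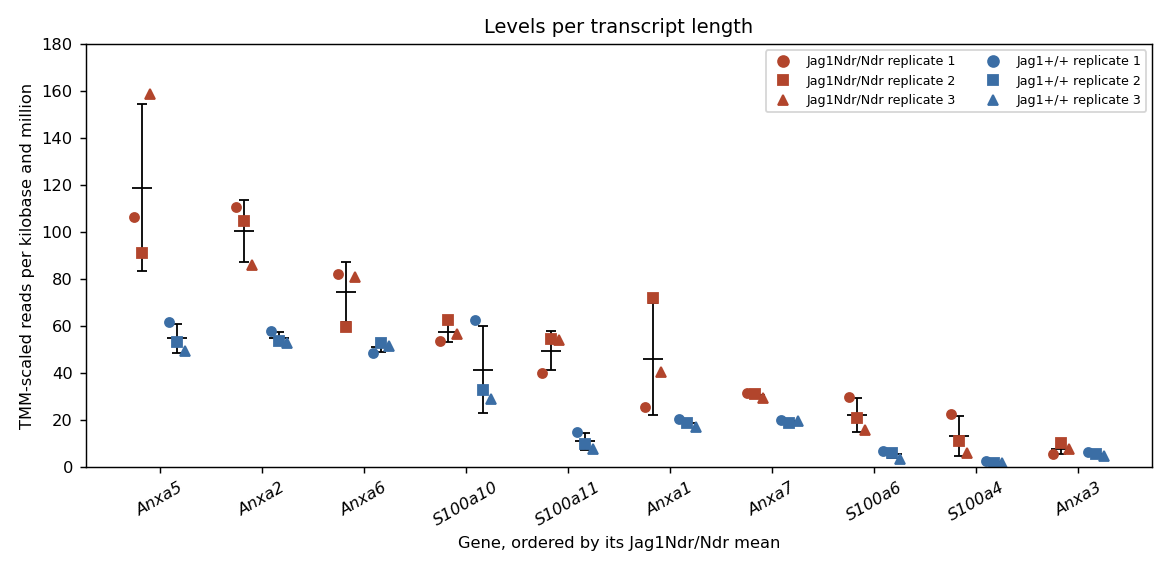
TMM-scaled CPM per kilobase of the 10 genes in each library on a linear axis; points are libraries and black marks the mean and SD of 3 per genotype. Anxa5 and Anxa2 lead in Jag1Ndr/Ndr livers, and S100a11 stands near 49.5 RPKM in Jag1Ndr/Ndr beside 10.9 RPKM in Jag1+/+ livers.

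Outside these 10 genes the S100 family held 3 rises. Of 12 other S100 genes 6 were tested, and S100a8, S100a9 and S100g rose, beside 4.73% of all genes tested. S100a8 and S100a9 make up calprotectin, the main cytosolic protein of neutrophils, and averaged 299 ± 98.3 and 487 ± 141 CPM in Jag1Ndr/Ndr, against 107 ± 18.7 and 177 ± 22.4 CPM in Jag1+/+ livers (SD, n = 3 each). They rose 2.79-fold and 2.75-fold (edgeR adjusted p = 0.0139 and 0.0114). Both lost their calls without Jag1+/+ replicate 2 (0.0766 and 0.0626) and replicate 3 (0.0727 and 0.0619). The ratio of S100a8 to S100a9 per length stayed between 0.791 and 0.844 in Jag1Ndr/Ndr and between 0.771 and 0.845 in Jag1+/+ libraries.

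S100g, the vitamin D-dependent calbindin of absorbing epithelia, varied most. It measured 94.2, 5.20 and 31.6 CPM in Jag1Ndr/Ndr replicates 1, 2 and 3, against 3.07, 3.11 and 3.41 CPM in Jag1+/+ replicates 1, 2 and 3. The Jag1Ndr/Ndr libraries differed by far more than the Jag1+/+ libraries, and all were higher. The log2 fold change was 3.75 ± 0.87 (SE, edgeR adjusted p = 0.0385), and 8 of 16 alternative settings kept the call. It was lost without Jag1+/+ replicates 1, 2 and 3 (adjusted p = 0.131, 0.132 and 0.133) and without Jag1Ndr/Ndr replicates 1 and 3 (2.49 at 0.0639, and 3.95 at 0.0580). It was also lost with robust moderation (0.0717) and with the header factor dividing (0.123). S100a1, S100a13 and S100a16 had log2 fold changes of 0.19 ± 0.35, 0.23 ± 0.31 and -0.09 ± 0.25 (SE) and overlapped between genotypes. Of the other annexins, edgeR called 0 of 5 tested. Neither DESeq2 nor limma called any (0 each), and 0 had an unadjusted p below 0.05 in edgeR. The ductal annexin Anxa4 had a log2 fold change of 0.27 ± 0.15 (SE). Anxa13 measured 0.532, 0.547 and 6.29 CPM in Jag1Ndr/Ndr replicates 1, 2 and 3, against 0.695, 0.616 and 0.672 CPM in Jag1+/+ replicates 1, 2 and 3, so that only replicate 3 of Jag1Ndr/Ndr was high.

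**Figure D3:**
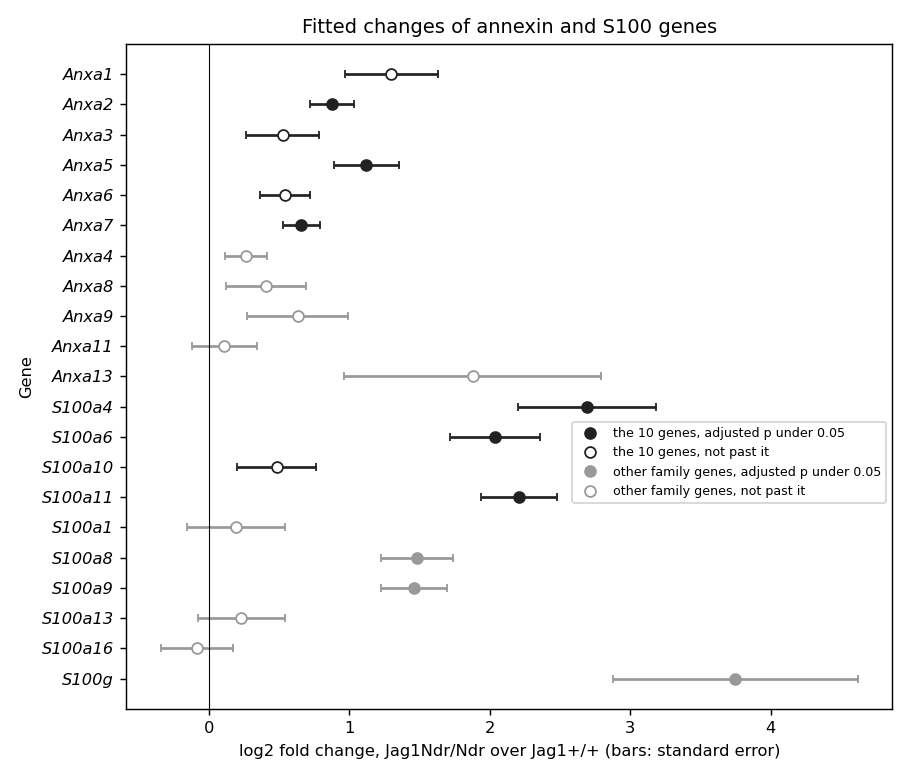
Fitted log2 fold changes (Jag1Ndr/Ndr over Jag1+/+) with standard errors for the 10 genes in black and the other tested annexin and S100 genes in grey; filled points have an edgeR adjusted p under 0.05. S100a4, S100a6, S100a11, S100a8, S100a9 and S100g lie between 1.46 and 3.75, and the filled annexins between 0.66 and 1.12.

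Of 18 listed receptors and partners of these proteins 15 were tested, 1 rose and 0 fell, where 4.73% of all genes tested rose, with a median log2 fold change of 0.46, while DESeq2 called 4 higher and 1 lower. The gene that rose was Plaur, the urokinase receptor of the plasminogen system, at 7.18, 9.82 and 6.93 CPM in Jag1Ndr/Ndr replicates 1, 2 and 3, against 2.55, 2.82 and 2.81 CPM in Jag1+/+ replicates 1, 2 and 3. The genotypes lay well apart (log2 fold change 1.55 ± 0.23 SE, edgeR adjusted p = 0.00841), and 15 of 16 alternatives kept the call, the exception being the deposited RPKM with a pseudocount of 1 (0.0617). Fpr2, a receptor of annexin A1, measured 7.0, 7.74 and 6.18 CPM in Jag1Ndr/Ndr against 4.34, 3.28 and 2.07 CPM in Jag1+/+ replicates 1, 2 and 3, and did not pass (log2 fold change 1.13 ± 0.30 SE, edgeR adjusted p = 0.0559). Of 18 genes of membrane repair 17 were tested and 1 rose, again beside 4.73% of all genes, with a median of 0.20. This was Capn1, a calcium-activated protease, with 29.8 ± 4.41 CPM in Jag1Ndr/Ndr and 18.4 ± 2.56 CPM in Jag1+/+ livers (SD, n = 3 each; edgeR adjusted p = 0.0491). Capn1 kept its call in 5 of 16 alternatives and lost it without any single library (adjusted p between 0.0537 and 0.207). It was also lost in the deposited RPKM (0.280 and 0.299), with the header factor dividing (0.0735), with library totals (0.0866) and once sex was a covariate (0.111).

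Most S100 genes lie together on chromosome 3, and the region's calls are given here in order. Between the start of S100a1 at position 90511034 and the end of S100a10 at 93564645 (GRCm38) the table has 67 entries, of which 10 passed the filter, 9 of them S100 genes. S100a1, S100a13 and S100a16, within 26.2 kb at one end, did not pass, while S100a4, S100a6, S100a8 and S100a9, between 92.7 and 181.6 kb from the start of S100a1, rose. At the far end S100a11 rose, and S100a10, its neighbour further along, did not pass. The sole other tested gene of the region, named here after its values were seen, was Sprr1a, a cornified envelope precursor. It measured 10.3, 8.41 and 16.2 CPM in Jag1Ndr/Ndr replicates 1, 2 and 3, against 0.289, 0.584 and 0.258 CPM in Jag1+/+ replicates 1, 2 and 3 (log2 fold change 4.91 ± 0.42 SE, edgeR adjusted p = 0.00140). Neighbours were not tested against each other.

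**Figure D4:**
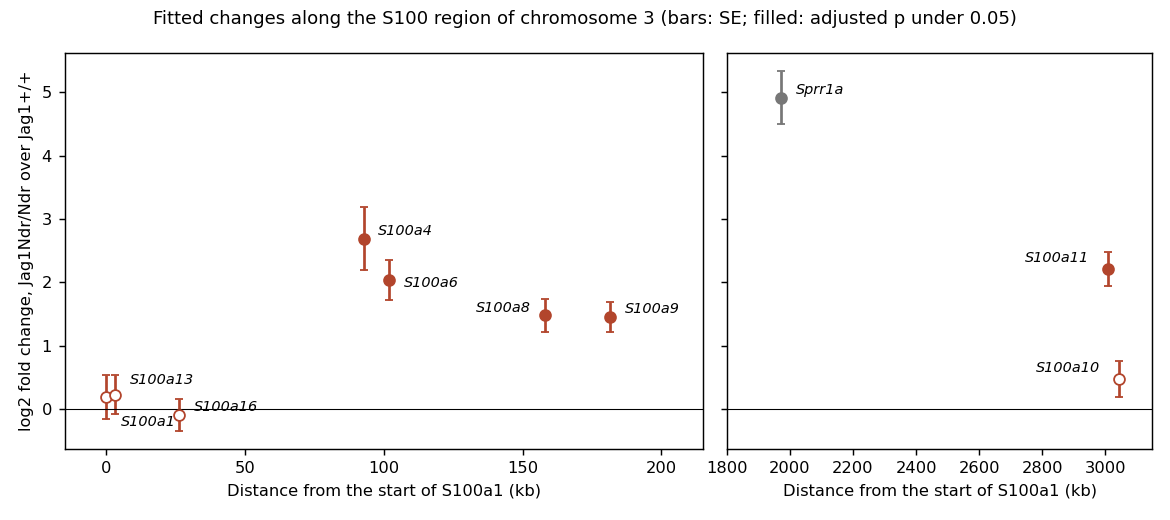
Fitted log2 fold changes (Jag1Ndr/Ndr over Jag1+/+) with standard errors against distance from the start of S100a1 in kb, in 2 panels because of the gap between gene clusters; red points are S100 genes, the grey point is Sprr1a, and filled points have an edgeR adjusted p under 0.05. The 3 genes nearest 0 kb lie close to a log2 fold change of 0, and the 4 genes between 92.7 and 181.6 kb lie between 1.46 and 2.69.

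Marker sums of some cell types, though not of most, also lay apart between the genotypes. The 6 annexins together measured 647 to 738 CPM in Jag1Ndr/Ndr and 370 to 400 CPM in Jag1+/+ libraries, and the 4 S100 genes 76.6 to 86.1 CPM in Jag1Ndr/Ndr and 25.3 to 53.1 CPM in Jag1+/+ libraries. Over all genes 653 rose (4.73% of those tested), 1127 by DESeq2, 679 without Jag1Ndr/Ndr replicate 1 and 366 once sex was a covariate. Without Jag1+/+ replicates 1, 2 and 3 the rises over all genes numbered 208, 155 and 181. Of 10 measured neutrophil markers 5 rose, 9 by DESeq2, 10 without Jag1Ndr/Ndr replicate 1, and 3 without any single Jag1+/+ library or once sex was a covariate. Their sum ran from 499 to 1376 CPM in Jag1Ndr/Ndr and from 387 to 444 CPM in Jag1+/+ libraries. Their most abundant genes Ngp and Ltf, of neutrophil granules, averaged 375 ± 190 and 212 ± 103 CPM in Jag1Ndr/Ndr and 180.1 ± 17.9 and 98.8 ± 5.52 CPM in Jag1+/+ livers, and did not pass. Of 13 macrophage and monocyte markers 6 rose, and 3, 2 and 3 without Jag1+/+ replicates 1, 2 and 3 and 3 once sex was a covariate, with a sum of 918 to 1172 CPM in Jag1Ndr/Ndr and 503 to 739 CPM in Jag1+/+ libraries. Their most abundant genes, the Kupffer cell lectin Clec4f and the growth factor receptor Csf1r, had log2 fold changes of 0.38 ± 0.23 and 0.29 ± 0.22 (SE) and did not pass.

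Other marker sums overlapped between genotypes, except the mesothelial sums, which lay narrowly apart with Jag1Ndr/Ndr higher. The counts below stand beside 4.73% of all genes tested that rose and 2.9% that fell. Of 6 erythroid markers 2 rose, 5 by DESeq2 and 5 without Jag1Ndr/Ndr replicate 3. None (0) rose without Jag1Ndr/Ndr replicates 1 or 2, without Jag1+/+ replicates 2 or 3, or once sex was a covariate. Erythroid markers summed to 196 to 503 CPM in Jag1Ndr/Ndr and 116 to 206 CPM in Jag1+/+ libraries, and mesothelial markers to 31.9 to 39.9 CPM in Jag1Ndr/Ndr and 6.64 to 31.0 CPM in Jag1+/+ libraries. Megakaryocyte and platelet markers gave 67.4 to 135 CPM in Jag1Ndr/Ndr and 24.6 to 70.3 CPM in Jag1+/+ libraries. Mesenchymal markers lay at 865 to 1314 CPM in Jag1Ndr/Ndr and 1060 to 1256 CPM in Jag1+/+ libraries, with 0 of 13 rising and 1 falling. DESeq2 called 2 higher and 1 lower. The fall was lost without any single Jag1+/+ library, without Jag1Ndr/Ndr replicates 1 or 3, and once sex was a covariate. Endothelial markers lay at 487 to 517 CPM in Jag1Ndr/Ndr and 488 to 545 CPM in Jag1+/+ libraries, with 1 of 7 rising. Cholangiocyte markers gave 267 to 380 CPM in Jag1Ndr/Ndr and 319 to 344 CPM in Jag1+/+ libraries. Lymphocyte markers gave 27.2 to 45.7 CPM in Jag1Ndr/Ndr and 38.2 to 49.9 CPM in Jag1+/+ libraries. Hepatocyte markers, with 1 of 12 falling, ran from 155400 to 282100 CPM in Jag1Ndr/Ndr and from 266500 to 278500 CPM in Jag1+/+ libraries. Hepatocyte falls numbered 3 by DESeq2, 4 without Jag1Ndr/Ndr replicate 1, and 0 without Jag1Ndr/Ndr replicate 3 or any single Jag1+/+ library. No measured marker had 0 reads in all 6 libraries, and the part of any cell type in the annexin and S100 values was not tested.

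**Figure D5:**
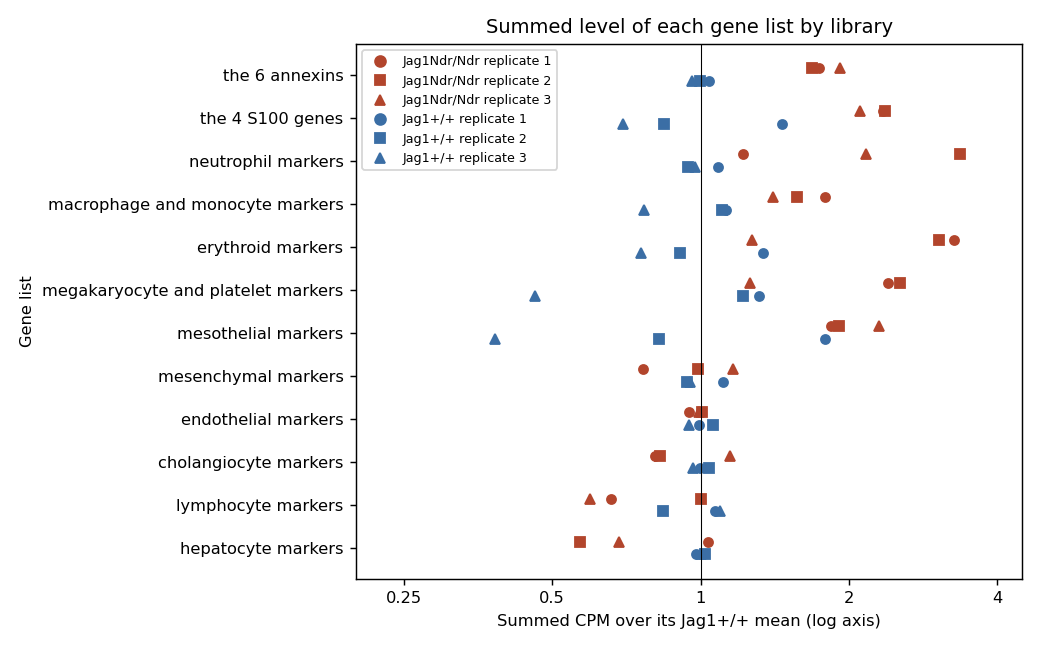
Summed CPM of each gene list in each library, divided by the mean of the 3 Jag1+/+ libraries, on a log axis; points are libraries. The 6 annexins, the 4 S100 genes, and the neutrophil, macrophage and mesothelial lists have all Jag1Ndr/Ndr libraries to the right of all Jag1+/+ libraries. For the mesothelial list this gap is narrow, and the endothelial list stays near 1 in both genotypes.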

How the data were processed

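Polyadenylated RNA of liver was sequenced in 6 libraries, 3 per genotype, made with a kit that does not mark strand, per the labels' protocols. The deposited table gives raw read counts per RefSeq gene entry. Beside them stand RPKM, to which the authors applied a TMM factor by multiplication, per the file headers. STAR and mm10 are named in the submitters' processing notes; their read counter is not stated there.

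Left out were 93 entries for spike-ins and eGFP (5 reads). After filterByExpr and TMM scaling, 13819 genes entered the quasi-likelihood test of edgeR, adjusted over all of them by Benjamini-Hochberg (R 4.3.3, DESeq2 1.42.0, limma 3.58.1, edgeR 4.0.16). CPM use TMM-scaled library sizes. RPKM printed here are these CPM over the entry's length, derived from the table as unscaled CPM over RPKM without its factor (within 5% of the entry's median for 98% of values). Each standard error was taken as the size of the log2 fold change divided by the root of F.

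The 10 genes are those given by symbol. The genes and lists were chosen with earlier results of these data known, and lists are described by counts. Named besides them are list genes past the threshold (up to 8 a list), the 2 most abundant markers of lists, and others as values for genes that did not pass, chosen after their values were seen. Of the listed symbols, Cavin1, Adgre1 and Epb42 matched through an older symbol and Muc16, Ly6g and Ahsp were not analysed here. Alternatives were another scaling, filter or tool, limma on log2 RPKM with a pseudocount of 1 or 0.1, a replicate block, sex as a covariate (read from Xist and Ddx3y), robust moderation and leaving out each library. The test was checked on simulated counts with 1 dispersion for all genes. It called 42 of 100 planted 2-fold changes, 97 of 100 planted 4-fold changes and 5 of 13619 unchanged genes. One alternative, RPKM with the header factor dividing, was added after the data were seen. Promoter windows and positions are from RefSeq on GRCm38.p6, the build of mm10.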

Additional observations from a re-analysis of the deposited data

How the results depend on the processing

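None of the 10 genes changed direction in any of 16 alternative settings, and S100a6 and S100a11 passed in all of them. The number of the 10 genes that rose ranged from 2 to 7 when 1 library was left out, was 8 by DESeq2, 7 without a filter, 5 in the deposited RPKM, 4 with sex as a covariate and 4 with the header factor dividing. The number that fell was 0 in each of the 16. Over all genes 1054 changed (653 higher, 401 lower), 1866 by DESeq2, 489 and 544 in the deposited RPKM with pseudocounts of 1 and 0.1, 596 with sex as a covariate, and between 282 and 1211 with 1 library left out, lowest without a Jag1+/+ library. The cause was not tested. The share of calls that were higher was 62% with TMM, 74.3% with library totals, 79.3% and 78.5% in the deposited RPKM and 54.5% with the header factor dividing. Against TMM the median log2 fold change moved by 0.13 with totals and by 0.21 and 0.22 in the deposited RPKM. The replicate block gave 1430 changed genes and 7 of the 10 rising, Anxa1 being added at a log2 fold change of 1.18 and an adjusted p of 0.0492, while S100g fell short (2.97 at 0.0501). Neutrophil markers numbered 6 and erythroid markers 5 among the rises. In the labels, libraries with the same replicate number also share the leading number of their description across genotypes, but what it marks is not said. Deviations of same-numbered libraries correlated at 0.086, 0.170 and 0.195, each library correlating best with its own number, a hint from the data. Not every pair exceeded 0.1, so the samples were not treated as paired. Depth limits S100a4 most, with 23 reads in its lowest library.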
